A study of Mus musculus with 8 samples.

Results

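The plasminogen activator system was followed here through 5 genes: Plau, Plat, Plaur, Serpine2 and Serpinb2. They were chosen by gene symbol, and all 5 were found, each as a single entry, among the 34399 gene symbols of the study's count tables. RNA came from GFP-positive cardiac fibroblasts that had been flow-sorted from mouse ventricles 4 weeks after surgical narrowing of the aorta (TAC), which loads the heart with pressure. All mice carried a tamoxifen-dependent Cre (MerCreMer) and a Cre-dependent eGFP reporter in the Rosa locus, had TAC at 8 to 10 weeks of age, and received tamoxifen at 100 mg/kg on 2 days and then in chow at 40 mg/kg. The 8 libraries formed 4 groups of 2. Postn-Cre controls (HK3 and HK4) had MerCreMer in the Postn locus, and Smad2/3 DKO libraries (HK15 and HK16) had in addition loxP-targeted Smad2 and Smad3. Tcf21-Cre controls (HK6 and HK7) had MerCreMer in the Tcf21 locus, and Tgfbr1/2 DKO libraries (HK2 and HK4) had in addition loxP-targeted Tgfbr1 and Tgfbr2.

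Postn is known as a gene of activated fibroblasts and Tcf21 as one of resident fibroblasts. Postn itself measured 208 and 186 CPM (counts scaled to the library total) in Postn-Cre controls against 1615 and 3076 CPM in Tcf21-Cre controls (log2 difference 3.30, edgeR adjusted p = 9.09e-05). Tcf21 measured 26.2 and 25.6 CPM against 163 and 111 CPM (2.10, adjusted p = 9.42e-05), so that both genes were higher in the Tcf21-Cre controls. The Smad2/3 libraries and their controls came from one sequencing run and the Tgfbr1/2 libraries and theirs from another, so that run, driver and targeted genes cannot be told apart between the comparisons. Whether a library came from 1 animal or from a pool is not stated in the labels. A p-value thus rests on scatter between the 2 libraries of a group, which may be technical. In the fits this scatter was pooled over the groups and moderated over all tested genes. Library totals ran from 21477646 to 32594474 counts, and 3 counts, the limit that a count of 0 allows, corresponded to 0.092 to 0.14 CPM. These floors and the counting intervals given here cover counting error only. The 10 fibroblast markers summed to between 18424 and 41229 CPM in the 8 libraries, with none at 0 in a whole group. No loss of Smad2 or Smad3 (log2 values -0.19 ± 0.19 and -0.26 ± 0.23, with adjusted p of 0.747 and 0.702) or of Tgfbr1 or Tgfbr2 (-0.24 ± 0.19 and 0.25 ± 0.20, with adjusted p of 0.533 and 0.535) was detected in edgeR fits of total counts, which do not check the loss of single exons.

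Urokinase (uPA, encoded by Plau) and tissue plasminogen activator (tPA, encoded by Plat) are secreted serine proteases that cut plasminogen to plasmin, a protease that dissolves fibrin, degrades matrix proteins and activates other proteases and growth factors. The urokinase receptor (uPAR, encoded by Plaur) is a lipid-anchored membrane protein that holds urokinase at the cell surface. Serpins block the activators: protease nexin-1 (encoded by Serpine2) inhibits urokinase, plasmin and thrombin, and plasminogen activator inhibitor-2 (PAI-2, encoded by Serpinb2) inhibits urokinase. Plasmin can also release latent TGF-beta from matrix.

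In the GRCm38 annotation Plau (ENSMUSG00000021822) lies at chr14:20836660-20843385 on the plus strand and Plaur (ENSMUSG00000046223) at chr7:24462484-24475968 on the plus strand. Plat (ENSMUSG00000031538) lies at chr8:22757727-22782844 on the plus strand. Serpine2 (ENSMUSG00000026249) and Serpinb2 (ENSMUSG00000062345) are both on chromosome 1, at chr1:79794197-79861180 on the minus strand and chr1:107511423-107535478 on the plus strand. Serpinb2 shares 291 exon bases with Serpinb10 on the same strand, which reached at most 0.0614 CPM in any library. No other member shares exon bases with another annotated gene.

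The upstream sequences of Serpinb2 and Serpine2 are shown because both serpins rose in the Tgfbr1/2 DKO libraries, with effects that differed between the comparisons. RefSeq (GRCm38.p6) gave upstream windows for 3 of the 5 members. Each line holds the 250 bases before an annotated start, read 5′ to 3′ on the gene's strand. The windows are at chr1:107511173-107511422 (plus strand) for Serpinb2 and chr1:79858666-79858915 (minus strand) for Serpine2. The Serpine2 window lies inside the span given above for the gene, whose 5′ end is at 79861180. It thus precedes an internal start and not the outermost one. Capitals mark matches on either strand to 4 motifs. The AP-1 motif was searched as TGANTCA and the Smad motif as CAGAC. The TATA box was searched as TATAAA and the GC box as GGGCGG, and matches of different motifs did not overlap.
Serpinb2: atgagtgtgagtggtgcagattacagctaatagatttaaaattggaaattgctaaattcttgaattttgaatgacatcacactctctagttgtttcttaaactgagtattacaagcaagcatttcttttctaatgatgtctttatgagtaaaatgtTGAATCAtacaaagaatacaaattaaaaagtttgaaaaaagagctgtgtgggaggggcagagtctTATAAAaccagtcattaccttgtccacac
Serpine2: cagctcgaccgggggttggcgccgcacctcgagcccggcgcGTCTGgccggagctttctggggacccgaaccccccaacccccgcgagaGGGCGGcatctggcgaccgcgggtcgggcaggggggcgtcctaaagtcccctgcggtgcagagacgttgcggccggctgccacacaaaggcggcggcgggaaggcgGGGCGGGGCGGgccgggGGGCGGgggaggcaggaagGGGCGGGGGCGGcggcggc
The printed Serpinb2 window held 1 AP-1 match and 1 TATA match, no Smad or GC box match, and 32.4% G and C. Another annotated start of Serpinb2 gave an overlapping window at chr1:107511260-107511509, not printed. It had the same numbers of matches and 38.4% G and C. The Serpine2 window held 6 GC box matches and 1 Smad match, neither an AP-1 nor a TATA match, and 78.8% G and C. The Plaur window, not printed, held 1 AP-1 match and 3 GC box matches at 59.6% G and C. Among 32851 windows of this length, 6.75% held the AP-1 letters, 42.2% the Smad letters, 12.4% the TATA letters and 32.7% the GC box letters. A match describes these letters and shows no binding.

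Per length of annotated exon, Serpine2 and Plat were the most abundant of the 5 genes in every group. In the Postn-Cre controls mean levels per kilobase were 35.7 CPM for Serpine2, 25.6 for Plat, 7.55 for Plau, 4.46 for Plaur and 1.18 for Serpinb2. In the Tgfbr1/2 DKO libraries they were 79.8 CPM per kilobase for Serpine2, 41.2 for Plat, 27.8 for Plau, 20.9 for Plaur and 7.73 for Serpinb2, the same order. The controls of the Tcf21 lineage held Plat (39.6 CPM per kilobase) and Serpine2 (39.2) at like levels, with Serpinb2 near the counting floor at 0.0292. All later levels are in CPM without length scaling.

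The Tgfbr1/2 comparison addressed the targeting of the TGF-beta receptors, as the labels give it, in cells marked by the Tcf21 driver. Plau, Serpine2 and Serpinb2 rose in the Tgfbr1/2 DKO libraries, by 3.36-fold, 2.15-fold and, in summed counts of a transcript near absent from the controls, 268-fold. Plaur was higher on average without passing the test, and Plat did not pass either. Thus 3 of 5 members were called higher and none lower, in a comparison in which 3.96% of 16658 tested genes were called (2.64% higher). The members' median log2 fold change was 1.75 against -0.01 over all tested genes. Serpinb2, with 4 and 0 counts in the controls, passed the filter on low counts through the DKO libraries and could hardly be called lower. The members were chosen with earlier results of these data known, so these counts and the median are descriptions.

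Plau measured 20.6 and 20.9 CPM in Tcf21-Cre controls against 60.7 and 70.7 CPM in Tgfbr1/2 DKO libraries. The groups lay far apart with controls that differed little from each other. The log2 fold change of Plau was 1.75 ± 0.21 (SE, edgeR adjusted p = 0.00222, n = 2 libraries per group), and the call held without each of the 4 libraries in turn.

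Plaur, the receptor of urokinase, measured 26.0 and 9.17 CPM in controls against 33.9 and 75.7 CPM in Tgfbr1/2 DKO libraries. The groups did not overlap, but the libraries within each group differed widely, and control HK6 lay close to DKO HK2. Its log2 fold change of 1.77 ± 0.72 did not pass (edgeR adjusted p = 0.306). It ranged from 0.99 without DKO HK4 to 2.64 without control HK6, and did not pass without any of the 4 libraries in turn.

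Plat, the other activator, measured 221 and 273 CPM in controls against 237 and 278 CPM in DKO libraries. The groups overlapped, and the log2 fold change was 0.14 ± 0.22 (edgeR adjusted p = 0.775).

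Serpine2 measured 308 and 342 CPM in controls against 641 and 681 CPM in DKO libraries. Both DKO libraries lay well above both controls, with little spread in either group. The log2 fold change was 1.11 ± 0.21 (edgeR adjusted p = 0.0216). The call depended on single libraries: the adjusted p was 0.0879 without control HK6, 0.0529 without control HK7, 0.105 without DKO HK4 and 0.0319 without DKO HK2.

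Serpinb2 measured 0.137 and 0 CPM in controls (4 counts and 0 counts) against 22.7 and 13.6 CPM in DKO libraries (741 and 406 counts). The controls lay at about the counting floor and both DKO libraries far above it. The summed counts, 1147 against 4, gave a ratio of 268 (95% exact interval 104 to 985). The fitted log2 fold change was 8.03 ± 0.64 (edgeR adjusted p = 0.000394), and the call held without each library in turn with values from 7.13 (without control HK7) to 12.12 (without control HK6, which leaves a control with no count).

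**Figure D1:**
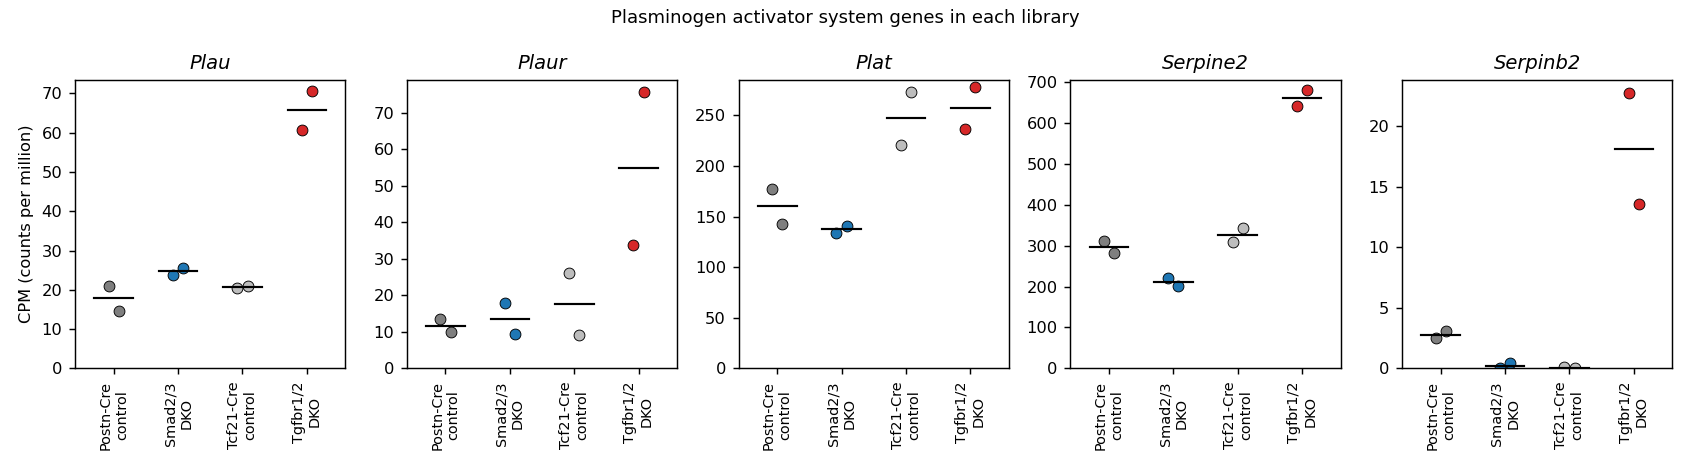
Level of each of the 5 genes in CPM (vertical axes, linear, from 0) in the 8 libraries, by group on the horizontal axes; each dot is 1 library and the line is the mean of 2. The Tgfbr1/2 DKO libraries stood above every other library for Plau, Plaur, Serpine2 and Serpinb2, and overlapped their controls for Plat.

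Myeloid cells are another known source of urokinase, its receptor and PAI-2, and their markers moved with this comparison. The 10 myeloid markers summed to 58.3 to 84.2 CPM in the Tcf21-Cre controls and to 204 to 222 CPM in the Tgfbr1/2 DKO libraries, and 5 of 10 were called higher (Cd14, Cd74, Csf1r, Adgre1 and Itgam). Lyz2, the lysozyme of macrophages, measured 9.90 and 26.6 CPM in controls against 82.5 and 90.6 CPM in DKO libraries (log2 fold change 2.31 ± 0.53, edgeR adjusted p = 0.103). Cd74, the invariant chain of antigen presentation, went from 12.7 and 22.2 CPM to 43.7 and 57.1 CPM, while Cd68 was at 22.1 and 13.8 CPM against 18.4 and 15.5 CPM. The pan-leukocyte gene Ptprc was at 1.27 and 0.890 CPM against 1.69 and 2.07 CPM. The neutrophil markers summed to at most 5.65 CPM in either group. The part of myeloid RNA in the higher Plau, Plaur and Serpinb2 was not tested, and more cells of a type cannot be told apart from more RNA per cell in sorted bulk samples. Endothelial markers summed to 400 to 445 CPM in the controls and to 510 to 531 CPM in the DKO libraries. The 1 of 10 called was Eng, at 190 and 172 CPM in controls against 311 and 279 CPM in DKO libraries, so that the sum leans on this gene. Tek was the only one with a negative fitted log2 value (-0.67, edgeR adjusted p = 0.0772), at 163 and 124 CPM against 88.1 and 81.8 CPM. The part of endothelial RNA was not tested either.

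**Figure D2:**
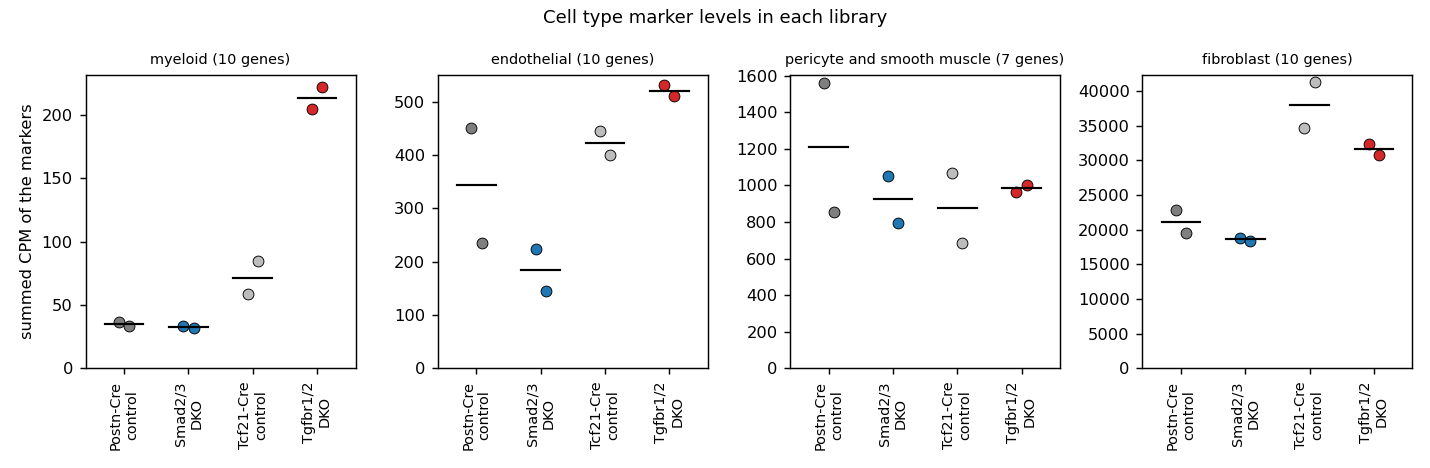
Summed CPM of the marker genes of 4 cell types (vertical axes, linear, from 0) in each library, by group; each dot is 1 library and the line is the mean of 2. Myeloid markers were at 204 to 222 CPM in the Tgfbr1/2 DKO libraries and at or below 84.2 CPM in all others.

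The Smad2/3 comparison addressed the targeting of intracellular transducers of TGF-beta, as labelled, in cells marked by the Postn driver. None of the 5 members passed the test in the Smad2/3 DKO libraries (0 of 5 by edgeR, beside 1.29% of 15760 tested genes called). At an unadjusted p under 0.05 there were 2, Serpine2 and Serpinb2, and the same 2 were called by DESeq2. Over all genes DESeq2 called 744 here against 204 in edgeR, and the share of all genes at that unadjusted p was not counted. Serpine2 and Serpinb2 both had lower values in the Smad2/3 DKO libraries, opposite in sign to the Tgfbr1/2 comparison. Serpinb2, with 0 and 9 counts in the DKO libraries, passed the filter on low counts through the controls and could hardly be called higher. The members' median log2 fold change was -0.28, against 0.01 over all tested genes.

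Plau measured 21.0 and 14.7 CPM in Postn-Cre controls against 23.8 and 25.6 CPM in Smad2/3 DKO libraries. The groups did not overlap, yet the controls differed from each other by more than HK3 did from DKO HK15, and the log2 fold change was 0.40 ± 0.30 (edgeR adjusted p = 0.63). Plaur measured 13.4 and 9.92 CPM in controls against 17.8 and 9.41 CPM in DKO libraries. Its groups overlapped, with a log2 fold change of 0.16 ± 0.40 (edgeR adjusted p = 0.92) whose sign turned without control HK4 (-0.05) and without DKO HK15 (-0.36). Plat measured 177 and 143 CPM in controls against 134 and 141 CPM in DKO libraries. The DKO values lay just under the lower control, and the log2 fold change was -0.28 ± 0.18 (edgeR adjusted p = 0.551).

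Serpine2 measured 311 and 281 CPM in controls against 221 and 201 CPM in Smad2/3 DKO libraries. Both DKO libraries lay below both controls, with a log2 fold change of -0.55 ± 0.15. It did not pass in edgeR (adjusted p = 0.121) and passed in DESeq2 (adjusted p = 0.0357).

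Serpinb2 measured 2.50 and 3.05 CPM in Postn-Cre controls (65 and 70 counts) against 0 and 0.419 CPM in Smad2/3 DKO libraries (0 and 9 counts). Both controls held the transcript at a low level, and DKO HK15 had no count of it. Summed counts, 135 against 9, gave a ratio of controls to DKO libraries of 14.4 (95% exact interval 7.36 to 32.2). The fitted log2 fold change was -3.79 ± 1.24 (edgeR adjusted p = 0.186). The adjusted p was 0.0457 in DESeq2, 0.0158 with no filter on low counts and 0.0301 without DKO HK16, where the remaining DKO library had no count and the fitted value was -9.13. It was 0.409 without DKO HK15, with a fitted value of -2.75, and 0.25 and 0.294 without controls HK3 and HK4.

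In this comparison the myeloid markers summed to 33.5 to 36.5 CPM in the controls and to 31.8 to 33.5 CPM in the Smad2/3 DKO libraries. Ptprc and Adgre1 were at 0 in both DKO libraries, and C1qa was at 0 in these and in both controls. Itgam was higher, at 9.01 and 12.4 CPM against 3.85 and 4.35 CPM in controls (1.33, edgeR adjusted p = 0.185). Lyz2, Cd74, Cd68, Csf1r and Cd14 had negative log2 values, and no myeloid marker was called. Endothelial markers summed to 236 to 451 CPM in the controls and to 145 to 224 CPM in the DKO libraries, with 0 of 10 called. Of the fibroblast markers 2 of 10 were called lower, the collagen genes Col1a1 (-1.69) and Col1a2 (-1.44), both at an edgeR adjusted p of 0.0011. Of the pericyte and smooth muscle markers 1 of 7 was called lower, the potassium channel gene Kcnj8 (-3.17, edgeR adjusted p = 0.0177). Xist, the RNA of the inactive X chromosome in female cells, was at 2.18 to 3.65 CPM in the controls and at 75.3 to 277 CPM in the DKO libraries. The Y-linked gene Ddx3y measured 164 to 222 CPM in controls against 132 to 177 CPM in DKO libraries, and Kdm5d 21.3 to 34 CPM against 30.4 to 37.3 CPM. The part of any of these in the values of Serpine2 and Serpinb2 was not tested.

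**Figure D3:**
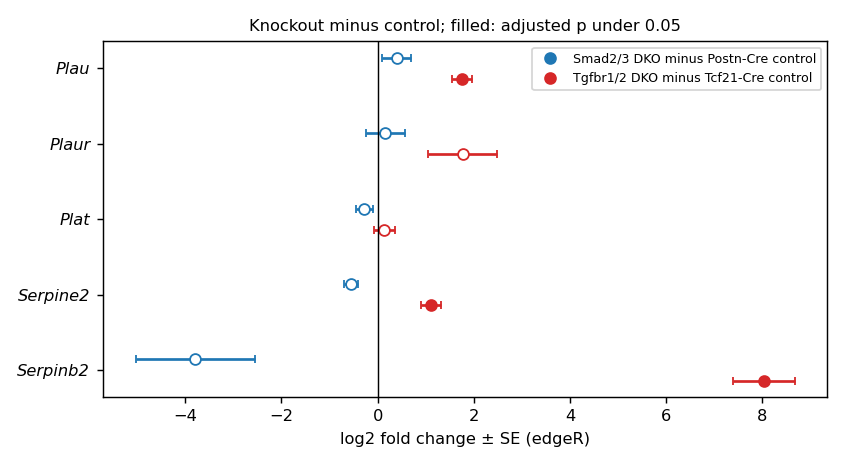
Log2 fold change of each member (horizontal axis) in the Smad2/3 comparison (blue) and the Tgfbr1/2 comparison (red) from the edgeR fits; bars are SE, and filled points passed an adjusted p of 0.05. Serpine2 and Serpinb2 lay on opposite sides of 0 in the comparisons (-0.55 and 1.11, -3.79 and 8.03), and Plau passed at 1.75 and did not at 0.40.

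The effects were then set against each other in a fit of all 8 libraries, as the Smad2/3 effect minus the Tgfbr1/2 effect. The difference passed the test for 2 of 5 members, both lower, beside 1.83% of 17770 tested genes called (1.17% lower). Serpinb2 had a difference of -11.86 ± 1.44 on the log2 scale (edgeR adjusted p = 0.00321), called without each of the 8 libraries in turn with values from -17.47 (without DKO HK16; -15.66 without Tcf21-Cre control HK6) to -10.8 (without DKO HK15). Serpine2 had a difference of -1.66 ± 0.25 (edgeR adjusted p = 0.0126; 0.0646 without DKO HK16). For both serpins the effect was negative in the Smad2/3 comparison and positive in the Tgfbr1/2 comparison. Serpinb2 had 0 and 9 counts in the Smad2/3 DKO libraries and 4 and 0 in the Tcf21-Cre controls. Its difference could therefore hardly be called higher.

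For Plau the difference of -1.36 ± 0.34 did not pass in edgeR (adjusted p = 0.0771) and did in DESeq2 (0.00917), with no filter on low counts (0.0152) and without Postn-Cre control HK4 (0.0446). Plaur had a difference of -1.62 ± 0.72 (edgeR adjusted p = 0.276; 0.00482 with no filter). With each of the 8 libraries left out in turn it was not called, with values from -2.51 (without Tcf21-Cre control HK6) to -0.84 (without Tgfbr1/2 DKO HK4, adjusted p = 0.721). Plat had a difference of -0.43 ± 0.29 (edgeR adjusted p = 0.496). The edgeR test of the difference thus did not show that Plau responded differently in the comparisons.

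Ordered by mean level, the Tgfbr1/2 DKO group came first for all 5 members. The order sets CPM from separate sequencing runs side by side, and the share of all genes with this group first was not counted. For Plau the Smad2/3 DKO group followed (24.7 CPM), then the Tcf21-Cre (20.7 ± 0.202, SD, n = 2) and Postn-Cre controls (17.9 ± 4.42), whose libraries overlapped. For Plaur the 3 other groups overlapped, with means of 17.6, 13.6 and 11.7 CPM. For Plat the Tgfbr1/2 DKO group (257 CPM) and its controls (247 CPM) overlapped, above the Postn-Cre controls (160 CPM) and the Smad2/3 DKO group (137 CPM). For Serpine2 the controls overlapped (325 and 296 CPM), above the Smad2/3 DKO group (211 CPM). For Serpinb2 the Postn-Cre controls were in second place (2.77 CPM), and the Smad2/3 DKO group (0.21 CPM) and the Tcf21-Cre controls (0.0685 CPM) overlapped.

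The control groups themselves differed in Serpinb2. It was lower in the Tcf21-Cre than in the Postn-Cre controls, with a log2 value of -5.54 ± 1.06 (edgeR adjusted p = 0.0023). It was the only one of 5 members called in a comparison in which 34.9% of 17770 tested genes were called (15.9% lower). Serpinb2 had 4 and 0 counts in the Tcf21-Cre controls, passed the filter on low counts through other groups and could hardly be called higher. The Serpinb2 call held without each library in turn, with values from -9.34 (without Tcf21-Cre control HK6) to -4.61 (without Tcf21-Cre control HK7). The log2 value was 0.34 for Plat (adjusted p = 0.224) and 0.28 for Plaur (adjusted p = 0.709). Plau at -0.08 (adjusted p = 0.829) and Serpine2 at -0.15 (adjusted p = 0.538) turned to 0.21 and 0.13 when taken as ratios of mean CPM. Sequencing run and Cre driver cannot be told apart here, and the Serpinb2 effects were measured against unlike control levels.

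Around the members, 58 genes of the pathway were read in 7 lists. In the Tgfbr1/2 comparison 8 of 47 tested were called higher and none lower, beside 2.64% of all tested genes called higher. Their median log2 fold change was 0.26, against -0.01 over all tested genes. In the Smad2/3 comparison 1 of 48 was called higher and 2 lower, beside 1.29% of all called in either direction (median -0.13, against 0.01). The difference of the effects passed for 6 of 49, all lower, beside 1.17% of all called lower. The lists were chosen with earlier results of these data known. For list counts at an unadjusted p under 0.05 the share of all genes was not counted.

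Plasminogen itself was hardly present, at no more than 0.174 CPM in any library. Of its cell surface receptors, Eno1, alpha-enolase, rose in the Tgfbr1/2 comparison from 45.7 and 53.0 CPM to 158 and 149 CPM (1.71 ± 0.19, edgeR adjusted p = 0.00148). The near-identical copy Gm5506 reached 56.6 CPM, so the count of Eno1 depends on how shared reads were split. Anxa2 and S100a10, which form a heterotetramer that binds plasminogen and tPA, had log2 values of 0.64 and 0.71 there (adjusted p = 0.115 and 0.0683). Of the 4 tested genes of this list, 0 passed in edgeR in the Smad2/3 comparison (2 at an unadjusted p under 0.05, 1 in DESeq2).

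The endocytic receptors that clear complexes of activator and serpin did not pass in either comparison (0 of 5 in both by edgeR; 2 and 1 at an unadjusted p under 0.05, and 0 and 1 in DESeq2). Lrp1, the main such receptor, measured 4445 and 4548 CPM in Tcf21-Cre controls against 4760 and 4200 CPM in Tgfbr1/2 DKO libraries. Its log2 values were 0.07 ± 0.23 (adjusted p = 0.9) and, in the Smad2/3 comparison, -0.36 ± 0.16 (adjusted p = 0.342).

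In the list of other inhibitors and a cofactor, 0 of 4 tested genes were called in edgeR in the Tgfbr1/2 comparison (1 at an unadjusted p under 0.05, 1 in DESeq2) and 0 of 3 in the Smad2/3 comparison (0 at an unadjusted p under 0.05, 0 in DESeq2). Neuroserpin (Serpini1), an inhibitor of tPA, had log2 values of 0.28 ± 0.38 (adjusted p = 0.738) and 0.01 ± 0.53 (adjusted p = 0.996), and its sign turned in both when single libraries were left out. Serpina5 had no count in any library.

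Among upstream proteases and the thrombin side, F2rl1, the protease-activated receptor PAR2, rose in the Tgfbr1/2 DKO libraries from 24.3 and 17.9 CPM to 77.5 and 74.2 CPM (1.93 ± 0.20, edgeR adjusted p = 0.000978). It was the only one of 6 tested genes called there, and none of 6 was called in the Smad2/3 comparison (0 at an unadjusted p under 0.05, 0 in DESeq2). The thrombin receptor F2r and the thrombin cofactor Thbd had log2 values of -0.06 and 0.25 in the Tgfbr1/2 comparison (adjusted p = 0.922 and 0.653).

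Of the substrates of plasmin and urokinase, Mmp3, stromelysin-1, rose in both comparisons. It went from 1.75 and 0.924 CPM to 9.63 and 12.5 CPM in the Tgfbr1/2 comparison (3.15 ± 0.40, edgeR adjusted p = 0.00321). It also went from 2.69 and 8.27 CPM to 27.3 and 38.5 CPM in the Smad2/3 comparison (2.54 ± 0.47, edgeR adjusted p = 0.0279; 0.0605 without DKO HK16), with log2 values of 1.95 without control HK3 and 3.54 without control HK4. Fibronectin (Fn1) and the latent TGF-beta binding protein Ltbp1 fell in the Smad2/3 comparison, by 1.09 ± 0.14 (edgeR adjusted p = 0.0037; 0.165 in a fit of all 8 libraries) and by 0.96 ± 0.14 (edgeR adjusted p = 0.00812; 0.0753 without DKO HK15). Ltbp1 went from 440 and 450 CPM to 237 and 239 CPM there. The difference between the effects passed for Ltbp1 (-1.19, adjusted p = 0.0411) and not for Fn1 (-0.85, adjusted p = 0.427). Thrombospondin-1 (Thbs1), which releases active TGF-beta, had log2 values of 0.86 (adjusted p = 0.225) in the Tgfbr1/2 comparison and -0.11 (adjusted p = 0.791) in the Smad2/3 comparison. The former ranged from 0.19 without DKO HK4 to 1.32 without DKO HK2, where it passed (edgeR adjusted p = 0.049).

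The membrane partners of uPAR held the most called genes of any list in the Tgfbr1/2 comparison, 4 of 9 tested, all higher. Itga5, the fibronectin receptor chain, went from 232 and 165 CPM to 476 and 611 CPM (1.55 ± 0.24, edgeR adjusted p = 0.00877; 0.0577 without control HK7). Itgb3, the beta chain of the vitronectin receptor, went from 41.1 and 31.5 CPM to 87.4 and 79.3 CPM (1.28 ± 0.19, edgeR adjusted p = 0.00696). Itgam, a leukocyte integrin chain that is also among the myeloid markers, went from 3.08 and 2.22 CPM to 8.59 and 7.95 CPM (1.72 ± 0.34, edgeR adjusted p = 0.023; 0.0813 without control HK7, 0.0588 without DKO HK2 and 0.0832 without DKO HK4). Cav1, the coat protein of caveolae, went from 73.6 and 70.4 CPM to 114 and 125 CPM (0.82 ± 0.18, edgeR adjusted p = 0.0365), and its call was lost without each library in turn. In the Smad2/3 comparison 0 of 10 were called in edgeR (5 at an unadjusted p under 0.05, 2 in DESeq2), with Itgb3 at -1.13 (adjusted p = 0.101) and Itga5 at -0.40 (adjusted p = 0.223).

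Of 9 other serpins, Serpinh1, the collagen chaperone HSP47, was the 1 called gene. It went from a mean of 475 CPM in the Tcf21-Cre controls to 945 and 894 CPM in the Tgfbr1/2 DKO group (1.04 ± 0.20, edgeR adjusted p = 0.023), a call lost without each library in turn (up to 0.108). None of the 9 was called in the Smad2/3 comparison (1 at an unadjusted p under 0.05, 0 in DESeq2). The fibrinogen chain genes Fga, Fgb and Fgg, precursors of the clot that plasmin dissolves, passed the filter on low counts in neither comparison.

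**Figure D4:**
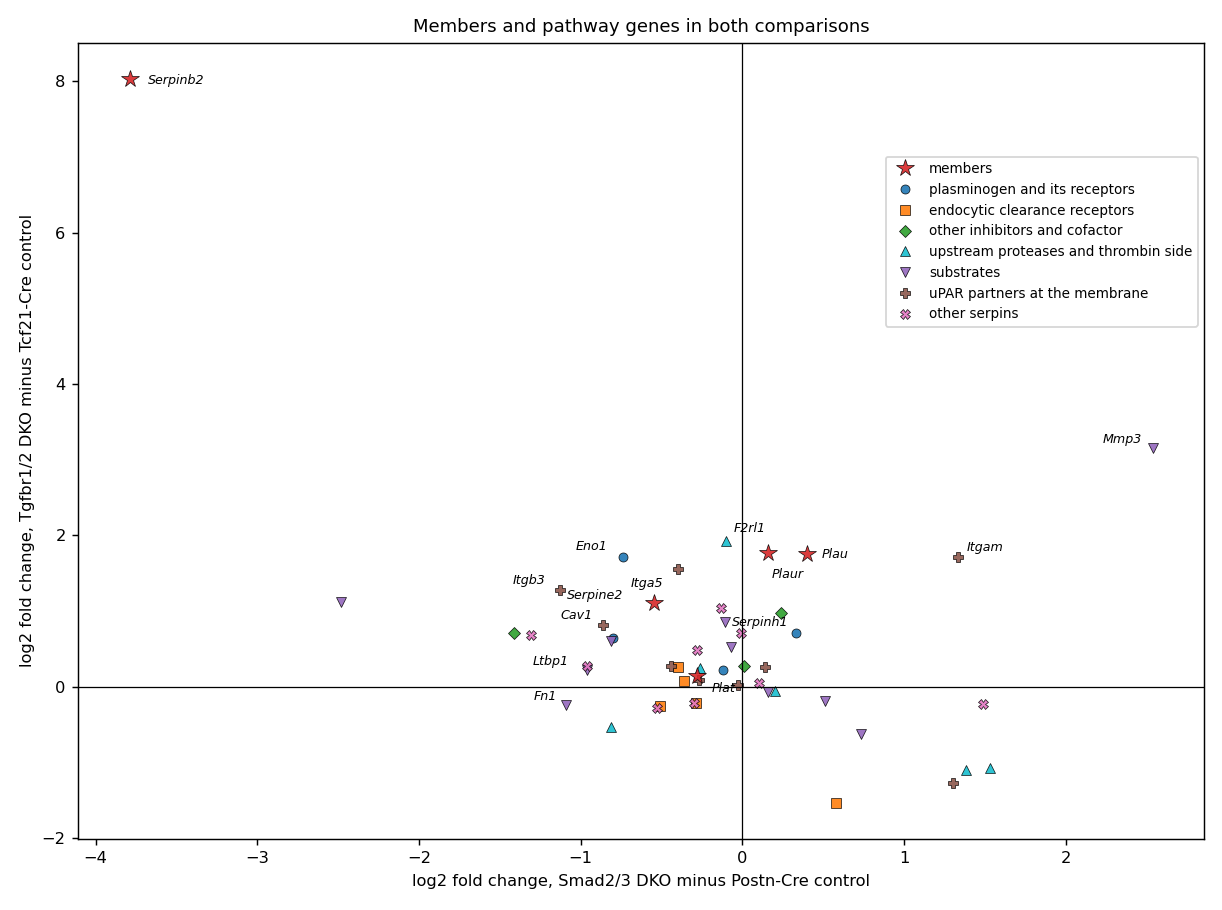
Log2 fold change in the Smad2/3 comparison (horizontal axis) against that in the Tgfbr1/2 comparison (vertical axis) for the members (stars) and the genes of 7 pathway lists tested in both; names mark members and genes called in either. Serpinb2 lay far to the upper left (-3.79, 8.03) and Mmp3 to the upper right (2.54, 3.15), and called genes of the other lists lay mostly above 0 on the vertical axis.

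Genes whose profile over the 8 libraries was nearest to each member were sought by the root-mean-square (RMS) difference of log2(CPM + 1) centred on its mean, among 9664 genes. Plau had Pdia6, a protein disulfide isomerase, nearest (0.21), then the complement component C3 (0.25) and the transferrin gene Trf (0.27). Plaur had Sbno2 (0.33), Cyp7b1 (0.42) and C3 (0.43), so that C3 was near both urokinase and its receptor. C3 measured 1251 and 748 CPM in Tcf21-Cre controls against 3796 and 3485 CPM in Tgfbr1/2 DKO libraries. Serpine2 had the glycolytic gene Gapdh (0.09), Eef1g (0.13) and Lman1 (0.14) nearest. Gapdh measured 775 and 838 CPM in Tcf21-Cre controls against 1519 and 1598 CPM in Tgfbr1/2 DKO libraries, and Eef1g 306 and 350 CPM against 485 and 621 CPM. The profile of Serpine2 was thus not particular to it. Plat had Cyp2j6 (0.06), Ube2z (0.10) and Josd1 (0.11). Serpinb2 had no close profile among these genes, with the matrix glycoprotein Tnc (0.68), the retinoic acid enzyme gene Aldh1a2 (0.69) and Ugt1a6b (0.72) the nearest. Only genes with a mean of at least 5 CPM were searched, and Serpinb2 itself had a mean of 5.3 CPM. Genes of lower level were thus not compared with it. Tnc was at 318 and 388 CPM in the Postn-Cre controls, 144 and 169 CPM in the Smad2/3 DKO libraries, 183 and 267 CPM in the Tcf21-Cre controls and 1164 and 1310 CPM in the Tgfbr1/2 DKO group, highest in the same group as Serpinb2. Since the 8 points fall into 4 groups, these likenesses are descriptions.

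In the authors' deposited table of the Tgfbr1/2 comparison, log2 fold changes were 1.66 for Plau, 1.71 for Plaur, 0.06 for Plat, 1.03 for Serpine2 and 2.90 for Serpinb2. In the authors' deposited table of the Smad2/3 comparison they were 0.49, 0.17, -0.21, -0.49 and -0.23 in the same order of genes. All 10 had the sign of the edgeR fits, and the values for Serpinb2 differed in size from the fitted 8.03 and -3.79. How the authors' log2 values treat low counts is not given in the sources used here, and the fitted values rest on groups with 4 and 0 and with 0 and 9 counts of Serpinb2.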

How the data were processed

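Per the labels' protocols, RNA of 8 libraries was amplified (NuGEN Ovation), tagmented (Nextera XT) and read on a HiSeq2500, and no step that marks strand is named. The authors deposited expected counts per gene for each library, named raw values in the file headers, with mm10 as genome build according to the submitters' processing notes. The sources used here do not name the aligner or the counter. Beside these, the authors deposited a log2 fold change per gene without a test, per the file headers.

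Expected counts were rounded to whole numbers (12.6% of values above 0 were whole within 1e-06) and entries sharing a symbol were summed. CPM is the count divided by the library total, times 1000000. Groups were taken from the sample titles, and HK numbers name libraries and pair nothing. Each knockout comparison was fitted to its own 4 libraries, and the difference of effects and the comparison of controls to all 8, in edgeR 4.0.16 (R 4.3.3; TMM, filterByExpr, robust quasi-likelihood F test, two-sided). Every adjusted p is from such a fit with Benjamini-Hochberg adjustment over all tested genes and a threshold of 0.05, unless DESeq2 1.42.0 is named. SE was derived from the F statistic. Alternatives were DESeq2-type size factors, no filter on low counts, DESeq2, no robust estimation, a fit of all 8 libraries, ratios of mean CPM and leaving out each library in turn, where a group's single remaining library was taken to vary as the other groups do.

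The members and lists were chosen with earlier results of these data known. Named were all members, the list genes called in a knockout comparison, the 3 most abundant genes of each list (values are given for those the results turn on, and 1 gene is not reported here), and for each member the 3 genes of nearest profile with a mean of at least 5 CPM. Positions and exon lengths are from GENCODE (GRCm38), and upstream sequences from RefSeq (GRCm38.p6).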

Additional observations from a re-analysis of the deposited data

Results flagged for a closer look

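For 2 members the effect of the knockouts differed between the comparisons in the fit of all 8 libraries (Smad2/3 effect minus Tgfbr1/2 effect, log2 scale, edgeR adjusted p). Serpinb2 differed by -11.86 (adjusted p = 0.00321), with libraries at 0 counts on both sides, and Serpine2 by -1.66 (adjusted p = 0.0126). Among the pathway genes the difference passed for 6 of 49, beside 1.83% of 17770 tested genes called (1.17% lower). Eno1 differed by -2.46 (adjusted p = 0.00227) and Itgb3 by -2.42 (adjusted p = 0.0118), both called without each of the 8 libraries in turn. F2rl1 differed by -2.04 (adjusted p = 0.0215; called in 4 of the 8 such fits) and Itga5 by -1.96 (adjusted p = 0.0126; 0.0606 without DKO HK16). Cav1 differed by -1.69 (adjusted p = 0.0352; called in 1 of the 8) and Ltbp1 by -1.19 (adjusted p = 0.0411; called in 1 of the 8). All 8 differences are negative, and run, Cre driver and targeted genes change together between the comparisons.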

How the results depend on the processing

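The members' calls in the Tgfbr1/2 comparison stood in most settings, 2 to 3 of 5 when 1 library was left out (Serpine2 was the one lost) and 3 in all other settings. In the Smad2/3 comparison the 0 members called became 1 with no low-count filter and 2 in DESeq2, and 0 to 1 with a library left out. For the difference the 2 members became 4 with no filter and 1 to 3 with a library left out. Numbers of all genes called moved more. In the Smad2/3 comparison 204 became 819 with no filter and 744 in DESeq2 (105 to 297 with a library left out). In the Tgfbr1/2 comparison 659 became 1233, 1129 and, in a fit of all 8 libraries, 299 (271 to 484 with a library left out). For the difference 326 became 1194 and 1123 (89 to 302), and between the controls 6193 became 3645 to 6500.

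Signs turned for values that passed no test. With a library left out, Plaur in the Smad2/3 comparison ranged from -0.36 to 0.54 and Plat in the Tgfbr1/2 comparison from -0.05 to 0.37. Between the controls Plau ranged from -0.32 to 0.25 and Plaur from -0.61 to 0.82, and ratios of mean CPM gave 0.21 for Plau and 0.13 for Serpine2. In the Smad2/3 comparison F2rl1 ranged from -0.47 to 0.19, Serping1 from -0.25 to 0.28, Serpinh1 from -0.38 to 0.08, Serpini1 from -0.54 to 0.74 and Smad3 from -0.62 to 0.03. In the Tgfbr1/2 comparison F2r ranged from -0.28 to 0.15, Fn1 from -0.77 to 0.63, Itgb1 from -0.02 to 0.21, Serpinf1 from -0.44 to 0.06, Serpini1 from -0.06 to 0.6 and Thbd from -0.2 to 0.6. The cause was not tested. Of 783 values of a named gene under an alternative, 696 were counted as unchanged. Fits counted so kept direction and call. Ratios of mean CPM, which have no call, kept direction and lay within the SE of the fitted value.

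No paired analysis was possible because the library numbers are unique within each comparison and pair no libraries. With 2 libraries per group and totals of 21477646 to 32594474 counts, Serpinb2 in the Smad2/3 DKO and Tcf21-Cre control libraries lay near the limit that a count of 0 allows, and the size of its fitted change there rests on a few counts.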
